A study of Homo sapiens with 60 samples.

Results

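The comparison concerns 1321N1 cells, a human astrocyte-derived (astrocytoma) line, after 24 h with 2.55 µM sodium metaarsenite (arsenic) or 20 µM mercury chloride (mercury). The members are 6 of the 60 libraries of the series, 3 per metal, selected by metal and time point alone, and the metals were compared directly for each gene rather than through the non-treated cells. Levels in 3 non-treated libraries harvested at 24 h and in 3 libraries from cells with 2.3 µM cadmium chloride are given beside them for orientation. The concentrations were set in the study to be equally toxic, as judged from cell death after a longer treatment, so they differ between the metals, and each metal was studied at 1 concentration. The labels call the triplicates technical and the methods call them only triplicates, so that the p-values measure the spread between these libraries and may not cover that between independent cultures.

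Arsenite and mercuric ions both bind thiol groups, and cells answer such agents with several transcriptional programmes. HSF1 turns on cytosolic chaperones when proteins misfold. NRF2 turns on glutathione and thioredoxin genes as well as HMOX1, and ATF4 turns on amino acid transport and synthesis when translation initiation is inhibited. MTF1 senses free zinc and turns on metallothioneins, small cysteine-rich proteins that bind zinc, cadmium and mercury, and the zinc exporter SLC30A1. Stress kinases of the MAPK family raise the immediate early genes, among them the AP-1 subunits of the FOS and JUN families.

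The libraries were made by 3′ mRNA sequencing, which reads transcripts near their 3′ ends. The total count was 2965114 to 3456891 in the arsenic libraries and 3104825 to 3313082 in the mercury libraries. At this depth, 3 counts correspond to about 1 CPM (counts scaled to a common normalized library size). The exact counting intervals of ratios and the floors given below cover counting error only. Intervals of log2 fold changes come from the edgeR fit and also include the spread between libraries. Replicates of each metal correlated at 0.961 to 0.965 over genes on the log2 scale, and mitochondrially encoded genes took 6.4% to 7.53% of counts with arsenic and 7.1% to 7.23% with mercury. Ribosomal protein genes took 11.7% to 12% with arsenic and 10.8% to 11.5% with mercury, and 15450 to 15622 against 15703 to 15884 genes were detected, both without overlap, and their part in the results was not tested. Of 13 astrocyte markers, VIM (9251 to 12610 counts per library), CD44 (667 to 1101) and SOX9 (124 to 325) were well counted, while the defining markers GFAP, AQP4 and ALDH1L1 had 0 counts in all 6 libraries. Markers of other cell types summed to 71.3 to 104.9 CPM with arsenic and 105.4 to 107.1 CPM with mercury, nearly all of it from the keratins KRT8 and KRT18 and from SYT1, and 11 of the 14 markers had fewer than 10 counts over the 6 libraries. KRT18 itself passed the test described next as higher with mercury (LFC -0.53). KRT8 (LFC 0.95) and SYT1 (LFC 0.33) lay in the arsenic direction without passing. The part of these markers in the results below was not tested.

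After 24 h, immediate early, cytokine and chaperone genes were higher with mercury, and these 3 lists had the largest shares of DE members and the lowest median LFCs, while genes of oxidant defence and amino acid supply were raised by both metals with smaller differences. Genes with an adjusted p under 0.05 in the quasi-likelihood test of edgeR and a more than 2-fold difference, that is a log2 fold change (LFC) beyond 1 in size, were taken as differentially expressed (DE). LFCs are given as arsenic minus mercury, so that a negative LFC means a higher level with mercury. Of 12341 genes tested, 345 (2.80%) were DE, 254 (2.06%) higher with mercury and 91 (0.737%) higher with arsenic. Without the threshold on the LFC, 1403 genes (11.4%) passed the edgeR adjusted p, 837 (6.78%) higher with mercury and 566 (4.59%) higher with arsenic. Passing the adjusted p in this way is called "passed" below. The median LFC over all genes was 0.01. When an LFC beyond 1 was itself tested (glmTreat of edgeR), 40 genes passed, all 40 higher with mercury. With the same test, 0 genes higher with arsenic passed, against 71 at an unadjusted p under 0.05, 97 DE in DESeq2 and 16 after its shrinkage with ashr.

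Genes higher with mercury had a median of 46.8 counts per library, and 124 of the 254 had a mean of at least 50, whereas the median was 22.7 for those higher with arsenic and 13 of 91 reached 50. Arsenic and mercury libraries did not overlap in 243 of the 254 and in 84 of the 91, against 3398 of all genes tested (27.5%). The 254 and 91 were selected by their difference in these same libraries, so this separation is not a finding. The non-treated mean lay between the metals in 144 of the 254 genes higher with mercury and below both in 96. Compared with non-treated cells, 409 genes (3.31%) were DE with arsenic, 233 (1.89%) higher and 176 (1.43%) lower, and 921 (7.46%) with mercury, 598 (4.85%) higher and 323 (2.62%) lower. Both comparisons share the non-treated libraries. Among the 254, 153 were DE and higher than non-treated with mercury and 13 with arsenic. In the same 254, 30 were DE and lower than non-treated with arsenic and 1 with mercury. Of the 91 genes higher with arsenic, 58 were DE and lower than non-treated with mercury, and 6 were DE and higher with arsenic. For these 91, the non-treated mean lay between the metals in 51 and above both in 36. The cadmium mean lay between the metals in 202 of the 254 and in 64 of the 91.

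**Figure D1:**
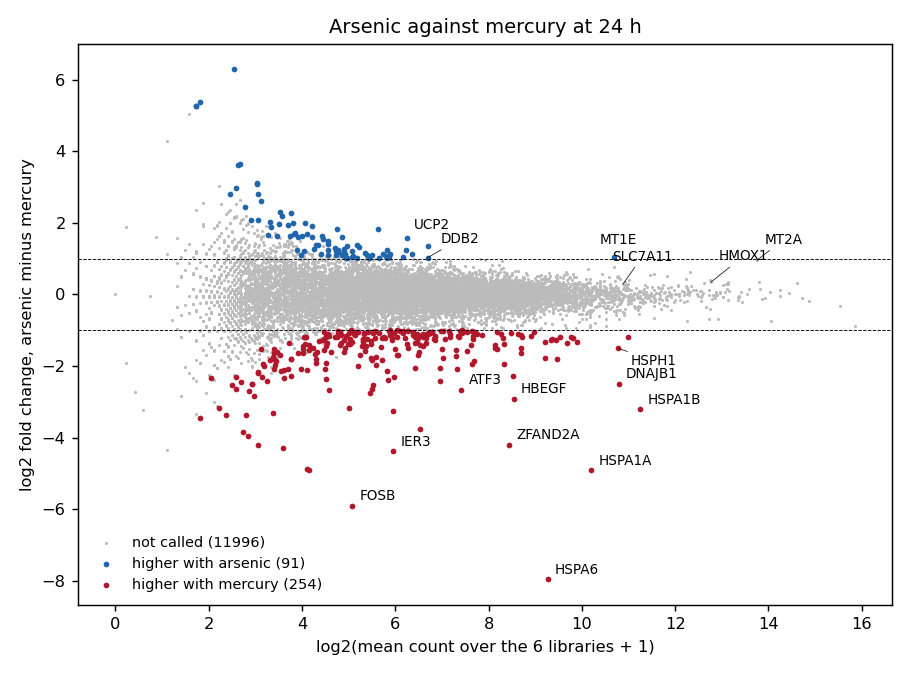
LFC of arsenic minus mercury at 24 h (vertical axis, log2) against log2 of the mean count over the 6 libraries plus 1 (horizontal axis), 1 point per gene tested; dashed lines mark LFCs of 1 and -1. The 254 genes higher with mercury reach an LFC of -7.96 at well-counted genes, whereas large positive LFCs among the 91 genes higher with arsenic lie at low counts and HMOX1 and SLC7A11 lie near 0.

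HSPA6, an inducible cytosolic HSP70 chaperone that most cells leave silent without stress (chr1:161524540-161526894 of GRCh38), separated the metals most. It had 380.5, 396 and 391 CPM in the mercury libraries and 1.338, 0.579 and 2.65 CPM in the arsenic libraries. Each mercury library was far above each arsenic library. The LFC was -7.96 (SE 0.26, adjusted p = 1.47e-36 in edgeR, n = 3 per metal). The 3 non-treated libraries held 1 count in all, against 15 with arsenic and 3670 with mercury, and the ratio of arsenic to non-treated was 16.2 with an exact counting interval from 2.49 to 680.3. Cadmium gave 207, 214 and 191 CPM, between arsenic and mercury.

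The promoter of HSPA6 is shown because it was 1 of 3 promoters of genes higher with mercury that held a heat shock element, the site bound by HSF1. The motif sought was GAA, TTC and GAA in this order, each separated by 2 bases of any kind, on both strands of the 250 bases before the start, and capitals mark the matches. Sequences are from RefSeq (GRCh38.p14), are written 5′ to 3′ in the direction of the gene, and end at the base before the RefSeq start. HSPA6 lies on the plus strand with the window chr1:161524290-161524539, and CHORDC1, a cochaperone of HSP90, on the minus strand with the window chr11:90223050-90223299. In the annotation of the counts CHORDC1 starts at chr11:90223077, inside this window, so its distances below hold for the RefSeq start only.
HSPA6: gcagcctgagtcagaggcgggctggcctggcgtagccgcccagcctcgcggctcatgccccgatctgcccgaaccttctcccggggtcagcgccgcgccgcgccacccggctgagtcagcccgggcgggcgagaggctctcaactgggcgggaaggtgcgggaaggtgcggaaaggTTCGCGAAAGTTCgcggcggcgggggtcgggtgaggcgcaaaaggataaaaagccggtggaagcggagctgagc
CHORDC1: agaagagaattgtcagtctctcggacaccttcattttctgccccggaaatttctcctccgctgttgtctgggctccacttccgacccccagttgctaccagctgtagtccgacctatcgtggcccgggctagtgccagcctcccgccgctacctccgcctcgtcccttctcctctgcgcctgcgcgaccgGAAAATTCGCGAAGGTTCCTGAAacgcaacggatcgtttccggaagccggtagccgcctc
In HSPA6 the match began 74 bases before the start, and in CHORDC1 there were 3 overlapping matches beginning 60, 55 and 50 bases before it. The other gene was ABHD3 (LFC -1.31, adjusted p = 0.04996 in edgeR), with 1 match. Of the 254 genes, 189 had a promoter in the table, and 1.59% of these held the motif, against 0 of 64 promoters of genes higher with arsenic, 0.297% of the 9428 promoters of genes tested and 0.439% of all 27305 promoters. The AP-1 site TGANTCA was present in 7.41% of promoters of genes higher with mercury and in 3.12% of those higher with arsenic, against 3.81% for genes tested and 6.6% for all promoters. The cAMP response element TGACGTCA was present in 3.7% and 0%, against 3.07% for genes tested. These are matches of letters, and a window without a match says nothing of the factor.

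Cytosolic heat shock genes were higher with mercury as a group. Of 40 tested members, 10 were DE (25%) and 31 passed (77.5%), all higher with mercury, against 2.06% and 6.78% of all genes tested. The median LFC was -0.59 against 0.01 for all genes tested. In all, 0 passed in the other direction with edgeR, and 0 were also found at an unadjusted p under 0.05 and with DESeq2. Relative to non-treated cells, 35 members passed as higher with mercury and 14 as higher with arsenic, against 13.9% and 6.54% of all genes tested, and 0 passed as lower with either (13.9% and 7.75% of all genes).

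Among the HSP70 family, HSPA1A (chr6:31815543-31817946), the main stress-inducible form, had 31.1, 21.4 and 19.7 CPM with arsenic and 672, 842 and 657 with mercury. Its near-identical neighbour HSPA1B (chr6:31827738-31830254) had 149, 162 and 140.2 CPM with arsenic and 1430.4, 1597 and 1136 with mercury. Neither gene overlapped between the metals, and their LFCs were -4.92 (SE 0.18, adjusted p = 4.54e-34 in edgeR) and -3.20 (SE 0.15, adjusted p = 3.88e-27). Both were also higher with arsenic than without treatment, with LFCs against non-treated cells of 1.59 and 1.60. Cadmium and mercury libraries were close for HSPA1A (522 to 715 CPM with cadmium) and apart for HSPA1B (404 to 573 CPM). Of the 3′ stretches of HSPA1A 6.76% are shared with another gene, mostly HSPA1B, and 0% of those of HSPA1B are. Some reads of the pair may thus be counted for the wrong gene, which was not examined. HSPA1L, a form expressed mainly in testis, was at 0 to 2.32 CPM with arsenic and 3.41 to 7.60 with mercury; its LFC of -2.15 (edgeR adjusted p = 0.0376) was not DE without arsenic replicate 1 or 3 or mercury replicate 1 or 3, with LFCs from -2.22 to -1.58 and adjusted p between 0.0859 and 0.203.

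DNAJB1, the HSP40 partner that delivers clients to HSP70, did not pass against non-treated cells with arsenic (LFC -0.16, adjusted p = 0.432 in edgeR) and was 5.63-fold higher with mercury than with arsenic. It had 164, 156 and 186 CPM with arsenic and 898, 1036 and 919 with mercury, an LFC of -2.49 (SE 0.12, adjusted p = 2.38e-26 in edgeR). BAG3, a nucleotide exchange factor that couples HSP70 to autophagy, had 91.7, 99.6 and 107 CPM with arsenic and 360, 355 and 327 with mercury (LFC -1.80, SE 0.13). The HSP110 chaperone HSPH1 had 299, 264 and 302 CPM with arsenic and 823, 827 and 813 with mercury (LFC -1.51, SE 0.08), and the cochaperone CHORDC1 had 78.3, 82.5 and 74.2 CPM with arsenic and 185, 174 and 150 with mercury (LFC -1.12, SE 0.13). In these 4 genes the groups did not overlap, and in BAG3 and HSPH1 the arsenic level had itself passed as higher than the non-treated level. HSPA4L, another HSP110 chaperone, lay at -1.04 and fell just inside the threshold; without arsenic replicate 1 it was -0.94 and without mercury replicate 2 -0.97, with edgeR adjusted p under 0.05 in both.

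HSPB8, a small heat shock protein that works with BAG3, was the least even member. It had 5.02, 2.03 and 3.83 CPM with arsenic and 60.1, 34.1 and 8.92 with mercury, so that the mercury libraries spread widely while staying above all arsenic libraries (LFC -3.25, SE 0.70, adjusted p = 0.000604 in edgeR). Other abundant chaperones differed by less. HSP90AA1, the inducible cytosolic HSP90, had an LFC of -0.88 (SE 0.07), the mitochondrial chaperonin HSPD1 -0.67 (SE 0.08), and the subunit CCT3 of the cytosolic chaperonin -0.44 (SE 0.08); these passed without being DE. In contrast, the ER chaperone HSPA5 (BiP) had an LFC of -0.06 (95% interval -0.21 to 0.09, edgeR adjusted p = 0.669). Of 32 tested ER chaperone and unfolded protein response genes, 2 passed in each direction (12.5% in all) and 1 was DE (3.12%). These shares were near the 11.4% and 2.80% of all genes tested. The DE gene was SEC24D of the COPII coat (LFC -1.06, edgeR adjusted p = 0.0220). With arsenic replicate 1, mercury replicate 2 or mercury replicate 3 left out, SEC24D was at -0.92, -1.04 and -1.04. It did not pass in these runs (edgeR adjusted p of 0.114, 0.0624 and 0.0527).

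Genes of the ubiquitin and proteasome pathway were higher with mercury, mostly by little. Of 37 tested members 11 (29.7%) passed as higher with mercury, against 6.78% of all genes tested. As higher with arsenic 0 passed (0 also at an unadjusted p under 0.05 and with DESeq2), against 4.59% of all genes. The median LFC was -0.18, and 1 member was DE (2.7%, near the 2.80% of all genes). ZFAND2A (AIRAP), a proteasome-binding protein first described as induced by arsenite, was the only DE member: it had 12.7, 8.39 and 13 CPM with arsenic and 196, 219.7 and 209 with mercury, without overlap, an LFC of -4.20 (SE 0.23, adjusted p = 9.75e-24 in edgeR). Its arsenic level did not pass against non-treated cells (4.38, 11.4 and 4.62 CPM; LFC 0.76, adjusted p = 0.0953 in edgeR). SQSTM1 (p62), a receptor that carries ubiquitinated cargo to autophagy, had an LFC of -0.41 (SE 0.09). FBXO32 (atrogin-1), a ubiquitin ligase subunit of wasting muscle that is outside the list, had 5.02, 5.79 and 6.18 CPM with arsenic and 33.7, 29.1 and 27.1 with mercury (LFC -2.39, SE 0.36).

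**Figure D2:**
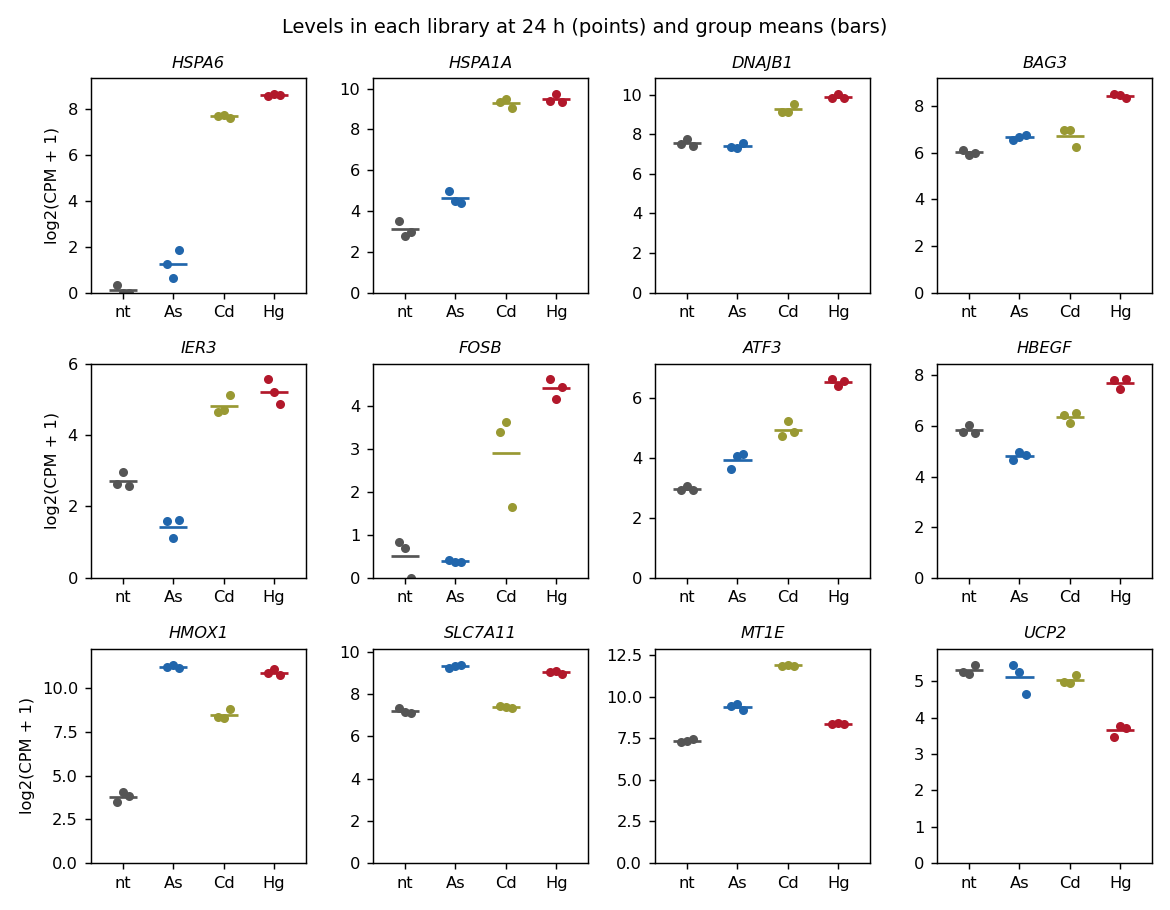
Level of 12 genes in each library at 24 h, as log2(CPM + 1), in non-treated (nt), arsenic (As), cadmium (Cd) and mercury (Hg) cells; points are libraries and bars are means of 3. Mercury points of HSPA6, HSPA1A, DNAJB1, BAG3, IER3, FOSB, ATF3 and HBEGF lie above all arsenic points, those of MT1E and UCP2 lie below, and HMOX1 and SLC7A11 are high with both metals.

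Immediate early genes were the group with the largest share of DE members. Of 33 tested, 16 were DE (48.5%) and 19 passed (57.6%), all higher with mercury, against 2.06% and 6.78% of all genes tested. The median LFC was -1.09. As higher with arsenic 0 passed with edgeR or DESeq2, and 1 did at an unadjusted p under 0.05. In 9 of the 16, the non-treated mean lay between the metals. Against non-treated cells, 24 members passed as higher with mercury and 10 as lower with arsenic, compared with 4 passing as higher with arsenic and 4 as lower with mercury. Of all genes tested, 13.9% passed as higher and 13.9% as lower with mercury, and 6.54% as higher and 7.75% as lower with arsenic, so that the 4 members lower with mercury were near the share of all genes.

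FOSB (chr19:45467995-45475179), an AP-1 subunit, had 1 count in each arsenic library and 23.6, 17.0 and 20.8 CPM with mercury. The 3 counts with arsenic against 193 with mercury gave a ratio of 67.1 with an exact 95% counting interval from 22.6 to 328. For FOS, 3 counts with arsenic stood against 98 with mercury, a ratio of 34.1 (11.3 to 168), and mercury replicate 3 was low, with 2.64 CPM against 15.4 and 12.7. IER3 (chr6:30743199-30744548), an early response gene that modulates survival and MAPK signalling, had 2.01, 1.16 and 2.06 CPM with arsenic and 46.3, 35.9 and 28.1 with mercury. Its arsenic libraries lay below all non-treated libraries (5.15, 6.76 and 4.91 CPM) and its mercury libraries above them. The direct LFC was -4.38 (SE 0.44, adjusted p = 3.40e-12 in edgeR).

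The same position of the non-treated level was seen for the stress-induced growth arrest gene GADD45B. It had 35.1, 38.8 and 43.6 CPM with arsenic, 62.8, 62.1 and 60 without treatment and 205, 186 and 183 with mercury (LFC -2.28, SE 0.11). The neuronal activity gene ARC had 2.68, 0.868 and 2.36 CPM with arsenic and 16.7, 18.3 and 18.5 with mercury (LFC -3.17, SE 0.42), around a non-treated level of 5.15, 8.30 and 4.62. IER5, a feedback partner of HSF1, and IER2 had LFCs of -1.37 (SE 0.10) and -1.19 (SE 0.10). Both were lower than non-treated with arsenic (LFC -0.51 and -0.38) and higher with mercury (0.86 and 0.80), and both passed in each of these comparisons.

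ATF3 (chr1:212565334-212620777), a stress-induced bZIP repressor, was higher than non-treated with both metals and more so with mercury. It had 11.4, 15.6 and 16.5 CPM with arsenic and 98.2, 84.3 and 95.5 with mercury against 6.70, 7.38 and 6.64 without treatment, a direct LFC of -2.67 (SE 0.24, adjusted p = 3.38e-14 in edgeR). Of the phosphatases that switch MAP kinases off, DUSP1 (-2.05), DUSP5 (-1.86) and DUSP6 (-1.20) were DE. The orphan receptor NR4A2 (-2.64), the small MAF protein MAFF (-1.95) and the AP-1 subunit JUNB (-1.13) were DE as well, and JUN itself passed at -0.93 (SE 0.08). The calls of NR4A1 (LFC -1.09, edgeR adjusted p = 0.0442) and KLF2 (-1.09, with overlapping libraries) lay close to the thresholds. NR4A1 was not DE without any of arsenic replicates 1, 2 and 3 or mercury replicate 1, with LFCs of -1.18, -1.08, -1.03 and -1.11 (edgeR adjusted p from 0.0807 to 0.121), without mercury replicate 2, with an LFC of -0.75 (0.310), or without the filter on low counts (0.0637). KLF2 was not DE without arsenic replicate 1 or 3 or mercury replicate 2 or 3, with LFCs from -1.05 to -0.87 (edgeR adjusted p from 0.0513 to 0.103).

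HBEGF (chr5:140332843-140346603), a membrane-shed ligand of the EGF receptor, moved in opposite directions with the metals. It had 24.4, 30.1 and 28 CPM with arsenic, 53.3, 64.2 and 51.1 without treatment and 222, 173 and 228 with mercury. The groups did not overlap, and the LFC was -2.91 (SE 0.15, adjusted p = 5.50e-26 in edgeR), 7.52-fold higher with mercury. Against non-treated cells it fell by 1.02 on the log2 scale with arsenic and rose by 1.89 with mercury. ESM1, a secreted proteoglycan of activated endothelium, had 3.34, 1.45 and 7.07 CPM with arsenic and 58.5, 50.5 and 53.2 with mercury (LFC -3.76, SE 0.24). RGS2, which shortens G protein signalling, had 6.36, 13.9 and 15.6 CPM with arsenic and 70.8, 79.3 and 44.6 with mercury (LFC -2.42, SE 0.24).

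Of 15 tested NF-kB and cytokine genes, 4 were DE and 8 passed as higher with mercury, and NFKB2 passed as higher with arsenic (LFC 0.63). In all, 26.7% were DE and 60% passed, against 2.80% and 11.4% of all genes tested. The DE genes were lowly expressed: the interleukin IL11 had 1.67, 4.34 and 0.589 CPM with arsenic and 10.7, 14.6 and 9.25 with mercury (LFC -2.35, SE 0.55), and the A20 deubiquitinase TNFAIP3, an inhibitor of NF-kB, had 3.68, 3.18 and 3.24 against 11.6, 10.5 and 7.60 CPM (LFC -1.56, SE 0.34). TNFAIP3 was at 9.79 to 18.5 CPM in non-treated cells, higher than with arsenic. The chemokine CXCL8 (-2.28) and the prostaglandin synthase PTGS2 (-2.08) kept LFCs of this order when libraries were left out but did not always pass. CXCL8 was at -1.91, -2.06 and -2.13 without arsenic replicate 2, arsenic replicate 3 and mercury replicate 2 (edgeR adjusted p of 0.121, 0.0898 and 0.0739), and PTGS2 at -2.04, -1.70, -1.94 and -1.96 without arsenic replicates 1 and 2 and mercury replicates 1 and 2 (edgeR adjusted p of 0.0573, 0.106, 0.0565 and 0.0563). Without arsenic replicate 2 or without mercury replicate 2, 2 of the 15 were DE, and with the stricter filter on low counts 1 was.

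**Figure D3:**
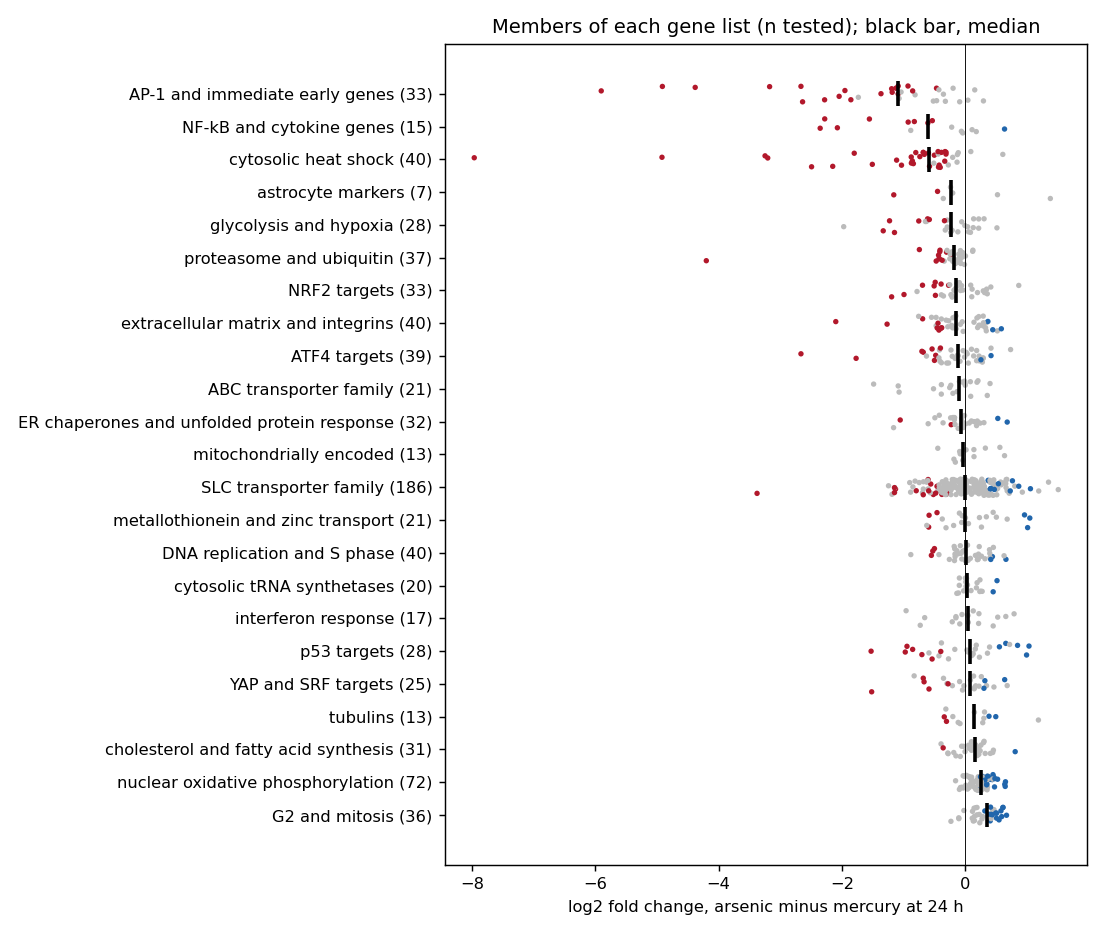
LFC of arsenic minus mercury at 24 h (horizontal axis, log2) for each tested member of 23 gene lists, with the number tested in brackets and the median as a black bar; blue and red points passed as higher with arsenic and mercury, and grey points did not pass. AP-1, NF-kB and heat shock genes lie to the left with medians of -1.09, -0.61 and -0.59, and G2 and mitosis genes lie furthest to the right with a median of 0.34.

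Oxidant defence genes controlled by NRF2 rose with both metals, and their differences between the metals were small and mostly towards mercury. Of 33 tested members, 30 passed as higher than non-treated with arsenic and 30 with mercury (6.54% and 13.9% of all genes), in comparisons that share the non-treated libraries, with median LFCs of 1.17 and 1.19. Compared directly, 8 (24.2%) passed as higher with mercury, against 6.78% of all genes tested, and 0 as higher with arsenic with edgeR or DESeq2 (3 at an unadjusted p under 0.05). The median LFC was -0.16, and 1 member was DE (3.03%, near the 2.80% of all genes). HMOX1 (chr22:35380361-35394214), the heme-degrading enzyme that is the classical arsenite-induced protein, had 2353, 2621 and 2276 CPM with arsenic and 1852, 2164 and 1699.9 with mercury, up from 10.3, 15.7 and 13. The arsenic libraries were all above the mercury libraries, but the LFC of 0.34 did not pass (95% interval 0.09 to 0.59, adjusted p = 0.0612 in edgeR), and 324, 310.1 and 442 CPM with cadmium were below both.

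GCLM, the regulatory subunit of the rate-limiting enzyme of glutathione synthesis, had 441, 495 and 515 CPM with arsenic and 500.4, 527 and 507 with mercury (LFC -0.08, 95% interval -0.26 to 0.10). TXNRD1, the cytosolic thioredoxin reductase, had 522, 535 and 515 against 606, 664 and 555 CPM (LFC -0.22, 95% interval -0.50 to 0.07). The intervals of both exclude a 2-fold difference. Glutathione reductase GSR (-0.49, SE 0.12) and the quinone reductase NQO1 (-0.27, SE 0.08) passed as higher with mercury. The aldo-keto reductase AKR1C1 was the exception in size: it had 149, 167 and 182 CPM with arsenic and 376, 412 and 355 with mercury, from 17.0, 17.5 and 21.9, an LFC of -1.20 (SE 0.13, edgeR adjusted p = 1.57e-11). Of its 3′ stretches 19.3% are shared with another gene, mostly AKR1C2, which lay in the same direction without passing (-0.78, edgeR adjusted p = 0.129). AKR1C3 lay in the arsenic direction without passing (0.86, edgeR adjusted p = 0.344), and 20.9% of its 3′ stretches are shared, mostly with AKR1C2. OSGIN1, an oxidative stress-induced growth inhibitor, lay at -0.996, just outside the threshold, and was DE in 6 of 12 alternatives.

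ATF4 targets rose with both metals as well, with 36 of 39 passing as higher than non-treated with arsenic and 33 with mercury, against 6.54% and 13.9% of all genes tested. Directly, 8 passed as higher with mercury and 2 as higher with arsenic (25.6% in all, against 11.4% of all genes). The median LFC was -0.12, and 2 were DE, both higher with mercury (5.13%, against 2.80% of all genes DE in either direction). PPP1R15A (GADD34), the phosphatase subunit that restores translation initiation, had 92.7, 82.5 and 76.6 CPM with arsenic and 294, 296 and 269 with mercury (LFC -1.77, SE 0.14, edgeR adjusted p = 2.00e-16), and ATF3, described above, was the other. TRIB3, a pseudokinase that restrains ATF4 (LFC -0.27, 95% interval -0.58 to 0.03), CHAC1, which degrades glutathione (0.05, -0.46 to 0.55), and the pro-apoptotic factor DDIT3 (-0.41, -0.76 to -0.06) did not pass, with edgeR adjusted p of 0.273, 0.940 and 0.127. The stress cytokine GDF15 had 88.3, 76.7 and 101 CPM with arsenic and 146, 165 and 123 with mercury (LFC -0.71, SE 0.20, edgeR adjusted p = 0.0132). Among 20 cytosolic tRNA synthetases, QARS1 (0.51) and WARS1 (0.45) passed as higher with arsenic (10%, against 4.59% of all genes tested). As higher with mercury 0 passed, also 0 at an unadjusted p under 0.05 and with DESeq2.

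Membrane transporters, the subject of the study, differed little between the metals. Of 186 tested SLC genes, 5 were DE (2.69%, against 2.80% of all genes), and 16 passed as higher with mercury and 9 with arsenic, 13.4% against 11.4%; of 21 ABC transporters 0 passed with edgeR, 1 in each direction at an unadjusted p under 0.05, and 1 (ABCC9, LFC -1.49 in edgeR) with DESeq2. SLC7A11, the cystine importer that feeds glutathione synthesis, had 607, 642 and 678 CPM with arsenic and 538, 547 and 492 with mercury. All arsenic libraries lay above the mercury libraries, but the LFC of 0.29 (95% interval 0.08 to 0.49, edgeR adjusted p = 0.0547) did not pass. Its heavy chain partner SLC3A2 lay in the other direction (-0.23, -0.42 to -0.04, edgeR adjusted p = 0.101), and SLC7A5, the leucine transporter that shares this chain, passed as higher with mercury (-0.48, SE 0.15, adjusted p = 0.0202). The glycine transporter SLC6A9 (0.41, edgeR adjusted p = 0.179) and the alanine and serine transporter SLC1A4 (0.10, adjusted p = 0.753) did not pass. The multidrug resistance protein ABCC1, which exports glutathione conjugates, had 33.1, 30.7 and 31.8 CPM with arsenic and 47.8, 38.7 and 38.7 with mercury (LFC -0.39, 95% interval -0.87 to 0.09, edgeR adjusted p = 0.336).

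Among the DE transporters were the glucose transporter SLC2A3 (GLUT3), the mitochondrial ATP-Mg/phosphate carrier SLC25A25 and the sulfate transporter SLC13A4, higher with mercury, and SLC2A6, higher with arsenic. SLC2A3 had 30.4, 28.9 and 35.3 CPM with arsenic and 74.3, 69.7 and 66.4 with mercury (LFC -1.15, SE 0.16, adjusted p = 2.22e-07 in edgeR), and SLC25A25 had 21.1, 20.8 and 17.4 against 49.1, 40.9 and 40.0 CPM (LFC -1.13, SE 0.21). SLC13A4 rested on 3 counts with arsenic and 33 with mercury, a ratio of 11.5 (exact 95% counting interval 3.60 to 58.5). SLC13A4 (LFC -3.38) was not DE without arsenic replicate 1 or 2 or mercury replicate 1 or 3, with LFCs from -3.21 to -2.83 (edgeR adjusted p from 0.0558 to 0.109). SLC2A6 (1.05) was not DE without arsenic replicate 3 (LFC 0.86), mercury replicate 2 (0.90) or mercury replicate 3 (0.88). Without arsenic replicate 2, 3 SLC genes were DE, and without mercury replicate 3, 2 were.

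**Figure D4:**
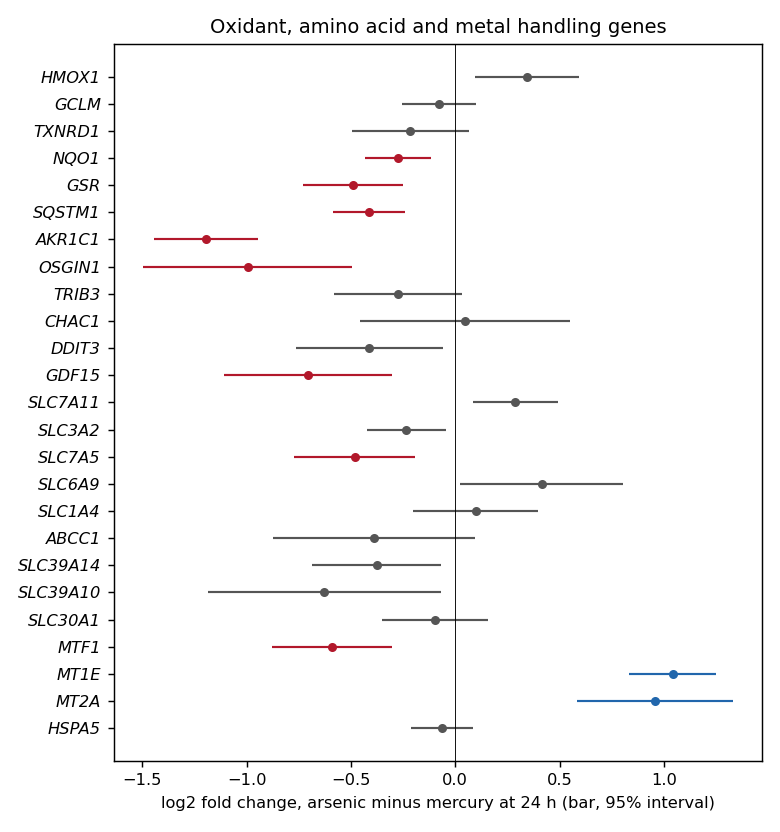
LFC of arsenic minus mercury at 24 h with its 95% interval (bar) for 25 oxidant, amino acid, metal and ER stress genes; blue and red mark genes that passed as higher with arsenic and mercury. The intervals of GCLM, TXNRD1, SLC1A4, SLC30A1 and HSPA5 include 0, and those of MT1E (0.83 to 1.25) and AKR1C1 (-1.45 to -0.95) lie farthest from it.

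The measurable metallothioneins MT1E, MT2A and MT1X were higher with arsenic. MT1E (chr16:56625475-56627112) had 706, 761 and 584 CPM with arsenic and 327, 343 and 326 with mercury, against 158, 161 and 174 without treatment and 3774, 3943 and 3676 with cadmium. The arsenic and mercury libraries did not overlap, and arsenic was 2.06-fold above mercury (LFC 1.04, SE 0.10, adjusted p = 3.09e-12 in edgeR). MT2A (chr16:56608584-56609497), the most studied isoform, had 6919, 6314 and 3788 CPM with arsenic and 2824, 2915 and 3028 with mercury; arsenic replicate 3 was lower than the other two but above all mercury libraries, and the LFC of 0.96 (SE 0.19, edgeR adjusted p = 0.000152) passed without being DE. MT1X (chr16:56682470-56684196) had 20.1, 23.2 and 25.9 against 8.81, 9.61 and 16.2 CPM (LFC 1.01, SE 0.21, edgeR adjusted p = 0.000452), and 44.4% of its 3′ stretches are shared with another gene, so its counts are uncertain. MT1B had 0 counts in all 6 libraries and in non-treated cells, and 4.09 to 8.62 CPM with cadmium.

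The calls of MT1E and MT1X lay close to the threshold on the LFC. MT1E was at 0.95 without arsenic replicate 2. MT1X was at 0.90 without arsenic replicate 3, 0.88 without mercury replicate 2 and 0.85 without mercury replicate 1, and at 0.995 to 0.999 without the filter on low counts, with RLE size factors or with DESeq2, while MT2A was DE without arsenic replicate 3 (1.17); in each of these, the adjusted p stayed under 0.05. Of 21 tested metallothionein and zinc transport genes, 2 were DE as higher with arsenic, and 3 passed in each direction. In all, 9.52% were DE and 28.6% passed, against 2.80% and 11.4% of all genes tested. The zinc exporter SLC30A1 (chr1:211571568-211579161) had 85.6, 91.7 and 82.8 CPM with arsenic and 104, 87.4 and 86.9 with mercury, overlapping (LFC -0.10, 95% interval -0.35 to 0.16, edgeR adjusted p = 0.700), so a 2-fold difference was excluded by the interval. The transcription factor gene MTF1 had an LFC of -0.59 (SE 0.14, edgeR adjusted p = 0.00286), higher with mercury, and the zinc importers SLC39A14 (-0.38, adjusted p = 0.109) and SLC39A10 (-0.63, adjusted p = 0.145) did not pass.

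The promoters of MT2A and MT1X are shown because of their repeated metal response elements, the sites bound by MTF1, spelled TGCACNC or TGCGCNC and sought on both strands (reverse complements GNGTGCA and GNGCGCA) in the same window as above; capitals mark the matches. Both genes lie on the plus strand, with the windows chr16:56608334-56608583 and chr16:56682220-56682469.
MT2A: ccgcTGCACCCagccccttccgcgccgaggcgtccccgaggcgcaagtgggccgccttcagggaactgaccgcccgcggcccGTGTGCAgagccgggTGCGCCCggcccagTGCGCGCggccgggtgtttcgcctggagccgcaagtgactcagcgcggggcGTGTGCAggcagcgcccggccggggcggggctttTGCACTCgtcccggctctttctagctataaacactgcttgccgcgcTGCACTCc
MT1X: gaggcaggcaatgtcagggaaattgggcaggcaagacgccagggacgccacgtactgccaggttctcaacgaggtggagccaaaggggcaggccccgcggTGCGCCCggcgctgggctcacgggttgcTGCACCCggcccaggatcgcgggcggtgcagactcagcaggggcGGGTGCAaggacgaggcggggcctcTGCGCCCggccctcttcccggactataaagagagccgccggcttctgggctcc
MT2A held 7 matches and MT1X held 4. At least 4 matches were found in 52 of the 9428 promoters of genes tested (0.552%), and at least 7 in 3 (0.0318%). A single match was common, in 33.9% of promoters of genes tested, 35.9% of those of genes higher with arsenic and 31.2% of those of genes higher with mercury. The antioxidant response element TGACNNNGC, bound by NRF2, was present in 17.2%, 12.7% and 12.1% of promoters of genes higher with arsenic, higher with mercury and tested, and the amino acid response element TGATGNAA, bound by ATF4, in 0%, 1.59% and 1.35%.

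By the rule that names the 12 largest LFCs with a mean of at least 50 counts, the genes higher with arsenic were UCP2, ATOH8, MRPL20-AS1, EPS8L2, SCN2A, CACNB3, DHRS2, SCN3A, SLC2A6, TMEM129, MT1E and DDB2, with LFCs from 1.03 to 1.58. UCP2 (chr11:73974672-73982843), a carrier of the inner mitochondrial membrane, had 43.1, 37.6 and 24.1 CPM with arsenic and 10.1, 12.7 and 12.2 with mercury. The arsenic values covered the non-treated ones (37.1, 35.7 and 43 CPM), and the mercury values were all below (LFC 1.58, SE 0.23, adjusted p = 3.67e-07 in edgeR). The helix-loop-helix factor ATOH8 had 37.1, 44.3 and 54.2 against 15.4, 19.2 and 18.2 CPM (LFC 1.36, SE 0.20), and the actin-regulating adaptor EPS8L2 had 34.1, 30.4 and 32.7 against 10.1, 13.3 and 17.8 CPM (LFC 1.24, SE 0.21). The sodium channel genes SCN2A (1.14) and SCN3A (1.07) overlap on chromosome 2 on opposite strands, which the strand-specific counting separates, and SCN3A was lower than non-treated with arsenic (LFC -1.05) and with mercury (-2.12). DHRS2, a mitochondrial reductase, was with MT1E the exception among the 12 in being DE as higher than non-treated with arsenic (LFC 1.96), with 34.8, 37.6 and 30.3 CPM against 16.1, 19.8 and 10.9 with mercury.

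Several of these calls moved below the threshold when a library was left out. Without arsenic replicate 1, the LFC was 0.94 for the calcium channel subunit CACNB3, 0.90 for the antisense RNA MRPL20-AS1 (edgeR adjusted p = 0.0529) and 0.93 for DDB2. Without arsenic replicate 2 it was 0.92 for SCN3A. Without mercury replicate 1, CACNB3 was at 0.86, without mercury replicate 2, DDB2 was at 0.83 and the ubiquitin ligase TMEM129 at 0.94, and without mercury replicate 3, SCN3A was at 0.98 and DHRS2 at 0.94 (edgeR adjusted p = 0.0712). UCP2, ATOH8, EPS8L2 and SCN2A were DE in each alternative run for single genes.

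The p53 targets were split. Of 28 tested members, 7 passed as higher with mercury and 5 as higher with arsenic (42.9% in all, against 11.4% of all genes tested). In each direction 1 was DE (7.14% in all, against 2.80% of all genes). The cell cycle inhibitor CDKN1A (p21) had 56.2, 43.7 and 40.3 CPM with arsenic, near the 42.5, 38.1 and 42.4 of non-treated cells, and 128, 127 and 148 with mercury (LFC -1.53, SE 0.15, adjusted p = 3.40e-12 in edgeR). The BH3-only gene PMAIP1 (NOXA) had 106, 129 and 110 against 234, 226 and 221 CPM (LFC -0.98, SE 0.11). In the other direction, the DNA damage-binding protein DDB2 had 48.5, 42.3 and 37.7 CPM with arsenic and 25.8, 15.2 and 21.8 with mercury (LFC 1.03, SE 0.20), below the 66.2, 63.9 and 53.1 of non-treated cells in both, and TP53I3 (0.99) and the p53 ligase MDM2 (0.65) passed. DDB2 was at 0.93 without arsenic replicate 1 and 0.83 without mercury replicate 2, and without arsenic replicate 2, 5 members of the list were DE.

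Genes of cell division and of the respiratory chain passed in the arsenic direction with small differences. Of 36 tested G2 and mitosis genes, 16 (44.4%) passed as higher with arsenic, against 4.59% of all genes tested. As higher with mercury 0 passed (also 0 at an unadjusted p under 0.05 and with DESeq2), against 6.78% of all genes. The median LFC of these genes was 0.34, and 0 of them were DE with edgeR or DESeq2. The centromere motor CENPE had 127, 143 and 157 CPM with arsenic and 97.2, 87.7 and 84.3 with mercury (LFC 0.67, SE 0.11, adjusted p = 6.24e-06 in edgeR), and cyclin B1 (CCNB1) had 137, 141 and 95.1 against 89.7, 66.9 and 88.5 CPM (LFC 0.61, SE 0.12). Against non-treated cells, 25 members passed as lower with mercury and 11 with arsenic, where 13.9% and 7.75% of all genes did. Of 40 DNA replication genes, 3 passed in each direction (15% in all, near the 11.4% of all genes tested). The helicase subunit MCM7 (LFC 0.66, SE 0.14) was below non-treated with both metals. Of 72 nuclear oxidative phosphorylation genes, 18 (25%) passed as higher with arsenic, against 4.59% of all genes tested. As higher with mercury 0 passed (0 also at an unadjusted p under 0.05 and with DESeq2), against 6.78% of all genes. The median LFC of this list was 0.25, and 0 members were DE with either tool. Complex I subunit NDUFA2 had 172, 156 and 124 CPM with arsenic and 90.3, 90.2 and 107 with mercury (LFC 0.65, SE 0.15), and 20 members passed as lower than non-treated with mercury and 3 with arsenic, the latter below the 7.75% of all genes. Of 13 mitochondrially encoded genes 0 passed with edgeR or DESeq2, and 1 in each direction did at an unadjusted p under 0.05.

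Astrocyte marker, matrix and hypoxia genes gave single differences. SOX9, a glial transcription factor, had 43.1, 37.3 and 36.5 CPM with arsenic, 81.2, 101 and 79.3 with mercury and 73.1, 68.6 and 89.4 without treatment (LFC -1.16, SE 0.15). The arsenic libraries lay below all others, and the same held for the surface receptor CD44 (LFC -0.45, SE 0.07). Tuftelin TUFT1 (LFC -1.52, SE 0.19) and the peptide hormone gene ADM (-1.33, SE 0.10) lay below non-treated with arsenic and above it with mercury. Of 28 glycolysis and hypoxia genes, 7 (25%) passed with edgeR as higher with mercury, against 6.78% of all genes tested. In the same list 0 passed as higher with arsenic with edgeR or DESeq2 (2 at an unadjusted p under 0.05). Among its 3 DE members, NDRG1 (-1.23) was at -0.86, -1.17 and -1.15 without arsenic replicate 3, mercury replicate 2 and mercury replicate 3 and did not pass (edgeR adjusted p of 0.165, 0.0653 and 0.0597). The matrix protease MMP3 (-2.10) was at -1.64, -2.16, -2.11 and -1.95 without arsenic replicates 1 and 2 and mercury replicates 2 and 3 and did not pass (edgeR adjusted p of 0.194, 0.0908, 0.0759 and 0.0969), nor without the filter on low counts (0.0612). Of 25 YAP and SRF targets, 3 passed as higher with arsenic and 5 as higher with mercury (32% in all, against 11.4% of all genes tested), with TUFT1 the DE member, and of 13 tubulins 2 passed in each direction (30.8%). Cholesterol and fatty acid synthesis genes (1 of 31 passing in each direction) and interferon genes (0 of 17 with edgeR or DESeq2, 2 as higher with arsenic at an unadjusted p under 0.05) lay below the share of all genes.

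Most differences of 24 h had the same sign at 12 h and were smaller there. At 12 h, 167 genes (1.35%) were DE between the metals, 124 higher with mercury and 43 higher with arsenic. Of the 254 genes higher with mercury at 24 h, 226 had the same sign and 65 were DE at 12 h, with a median LFC of -0.77 at 12 h and -1.40 at 24 h. Of the 91 higher with arsenic, 83 had the same sign and 9 were DE, with medians of 0.53 and 1.37. These genes were selected at 24 h, so the larger median there is not a finding. Tested as a change of the difference itself, 12 of 12341 genes (0.0972%) changed, 10 in the mercury direction (0.0810%) and 2 in the arsenic direction (0.0162%). Among them, HBEGF went from an LFC of -1.53 at 12 h to -2.91 (adjusted p of the change = 2.31e-05 in edgeR) and HSPA1A from -3.70 to -4.92 (0.00320), whereas HSPA6 stood at -7.93 and -7.96 at the 2 times (0.994). In HBEGF the mercury libraries had 89.6, 104 and 121 CPM at 12 h and 173 to 228 at 24 h, and the arsenic libraries 26.1, 37.7 and 45.0 at 12 h and 24.4 to 30.1 at 24 h. GDF15 went the other way, from -2.20 to -0.71 (adjusted p of the change = 0.00812; 0.0531 without arsenic 12 h replicate 1): its arsenic libraries had 12.6, 12.9 and 17.4 CPM at 12 h and 76.7 to 101 at 24 h, and its mercury libraries 52.4, 75.5 and 69.5 CPM at 12 h and 123 to 165 at 24 h.

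**Figure D5:**
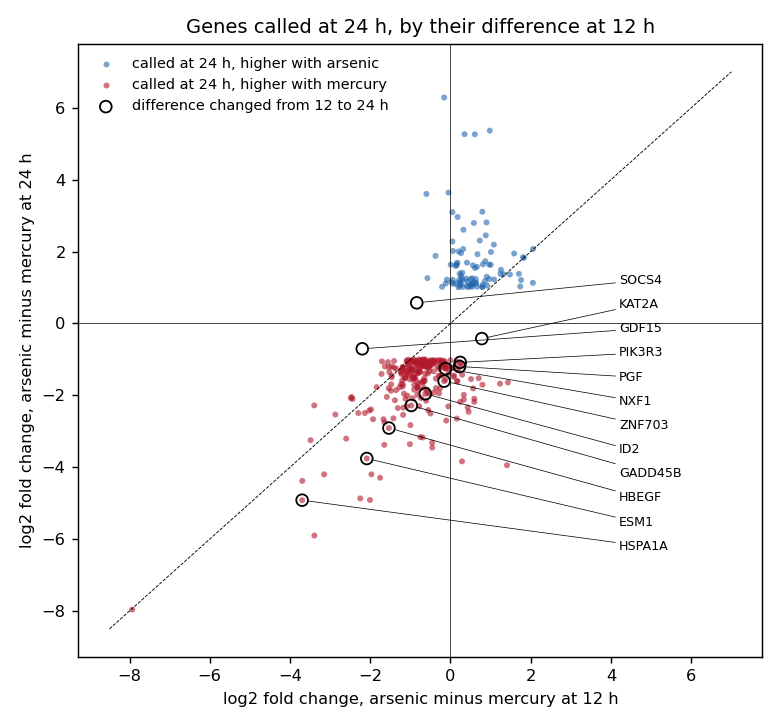
LFC of arsenic minus mercury at 24 h (vertical axis) against that at 12 h (horizontal axis) for the 345 genes DE at 24 h, with the 12 genes whose difference changed ringed and named and equal values on the dashed line. Of the genes higher with mercury at 24 h, 226 lie at negative LFCs at 12 h as well, HSPA6 lies on the line, and GDF15 lies above it.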

How the data were processed

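Per the labels, 3′ mRNA libraries were sequenced from 1321N1 cells in 20 groups of 3. The deposited values are raw read counts per gene; the authors aligned reads with STAR 2.7.9a to GRCh38 and counted them per gene, strand-specifically. Here, 60 libraries (2215276 to 4404609 counts) and 20 groups were fitted together with edgeR 4.0.16 in R 4.3.3 (TMM, filterByExpr with a minimum count of 10 and total of 15, quasi-likelihood test, Benjamini-Hochberg adjustment), leaving 12341 of 62703 genes; 92 spike-in sequences had 0 counts. CPM use TMM-normalized library sizes. Alternatives were RLE size factors, other filters, a replicate block, the compared libraries alone, DESeq2 1.42.0 (also with ashr 2.2.63), glmTreat and leaving out each library. The fit was tested on simulated data.

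Named genes are the 12 DE genes with the largest LFC in each direction with a mean of at least 50 counts, the metallothioneins and SLC30A1, up to 4 members per list by size of LFC, and 5 genes per direction for the change from 12 to 24 h; other named genes were chosen after their values were seen. The members and lists were chosen with earlier results of these data known. Shared 3′ stretches were found by comparing the 3′ ends of transcripts. Deviations of same-numbered libraries correlated only weakly, which cannot settle whether the libraries are paired. Promoters come from a RefSeq table (GRCh38.p14) matched by symbol. For the replicates within a metal, counts differed by more than sampling noise. Values of some genes that the rule names are not reported here.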

Additional observations from a re-analysis of the deposited data

Results flagged for a closer look

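The difference between arsenic and mercury was itself tested for a change from 12 to 24 h, as an interaction in the edgeR fit of all libraries. Of 12341 genes tested 12 changed, and 9 of these were among the named genes. ESM1, ZNF703, PGF, HBEGF, ID2, GDF15 and SOCS4 met the naming rule through this same change. The count of 9 is therefore set in part by the selection and is not a finding. On the log2 scale, the change towards mercury was -1.22 for HSPA1A, -1.672 for ESM1, -1.376 for HBEGF, -1.447 for ZNF703, -1.424 for PGF, -1.331 for ID2 and -1.306 for GADD45B. The change towards arsenic was 1.493 for GDF15 and 1.414 for SOCS4. The placental growth factor PGF and the transcriptional repressor ZNF703 went from LFCs of 0.23 and -0.16 at 12 h to -1.20 and -1.61 at 24 h, and ID2, an inhibitor of helix-loop-helix factors, went from -0.63 to -1.96. The adjusted p of ESM1 was 0.091 in edgeR without arsenic 24 h replicate 2, and that of GDF15 was 0.0531 without arsenic 12 h replicate 1. That of SOCS4 was 0.0606 without arsenic 24 h replicate 3, 0.063 without mercury 24 h replicate 2 and 0.0523 without arsenic 12 h replicate 1.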

How the results depend on the processing

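The 345 DE genes (91 higher with arsenic, 254 with mercury) became 1403 (566 and 837) on the adjusted p alone, which sets no threshold on the LFC. They became 40 (0 and 40) with glmTreat, which tests the LFC against the threshold. After ashr shrinkage in DESeq2, 136 (16 and 120) met the same thresholds with the shrunken LFCs. Without shrinkage, DESeq2 gave 97 higher with arsenic and 282 higher with mercury. With the stricter filter, 59 were higher with arsenic and 207 with mercury, and the cause of these lower counts was not tested. RLE size factors, no filter, the compared libraries alone and DESeq2 gave 354, 308, 295 and 379 DE genes. DESeq2 shared 340 of the 345, and RLE size factors 341. Leaving out 1 library gave 278 to 350 DE genes, 75 to 118 higher with arsenic and 203 to 250 higher with mercury, of which 235 to 263 were among the 345. Against non-treated cells, the ranges were 328 to 523 for arsenic and 805 to 1098 for mercury, and the change from 12 to 24 h gave 9 to 16 genes. With the replicate number as a block, 342 genes were DE (87 and 255), with 410 and 917 against non-treated cells and 12 for the change. The same-numbered libraries correlated at 0.00117 to 0.0173 in their deviations, and differently numbered ones at -0.0141 to 0.00348. With 3 libraries per metal, such small values cannot settle whether the numbers pair them.

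Some values near 0 changed sign, and the cause was not tested. The median LFC of tubulins was -0.09 with the stricter filter and -0.093 to 0.171 without single libraries, including -0.028 without mercury replicate 1. That of YAP and SRF targets was -0.043 to 0.093 and that of p53 targets -0.026 to 0.088. CHAC1 lay between -0.074 and 0.223, and MT1B, with 0 counts with both metals, at -0.009 with the block. At this depth, a level under about 1 CPM rests on 3 counts or fewer, and genes near that level cannot be resolved.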

Other observations

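Some genes outside the lists, chosen after their values were seen, also separated the metals at 24 h. PLAUR, the receptor of urokinase, had 173, 179 and 159 CPM with arsenic and 425.5, 470 and 398 with mercury (LFC -1.34, SE 0.10, edgeR adjusted p = 4.88e-17). The glycoprotein hormone STC1 had 30.8, 25.2 and 31.2 CPM with arsenic and 89.4, 85.8 and 85.9 with mercury (LFC -1.58, SE 0.12, edgeR adjusted p = 8.37e-18). ERRFI1, an inhibitor of the EGF receptor, had 39.1, 34.4 and 28.6 against 97.2, 95.8 and 76.7 CPM (LFC -1.40, SE 0.20). In these genes no arsenic library reached a mercury library.

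The circadian repressor CRY1 had 7.02, 9.84 and 8.54 CPM with arsenic and 22, 21.1 and 27.4 with mercury, where non-treated cells had 21.4, 13.5 and 24.5 (LFC -1.46, SE 0.24, edgeR adjusted p = 4.46e-06). CLOCK, the activator of the same cycle, had an LFC of 0.25 (SE 0.16, edgeR adjusted p = 0.344). The clock genes PER2 (LFC -2.70, edgeR adjusted p = 0.00290) and CIART (-1.19, edgeR adjusted p = 0.0358) were DE as higher with mercury. Both were lowly expressed, with means of 0.489 and 2.97 CPM with arsenic and 3.51 and 6.77 with mercury. Clock genes were not examined as a list.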
